A study of Mus musculus with 38 samples.

Results

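The Hox cluster genes were the 39 protein-coding genes of the GENCODE vM1 annotation (mouse genome build mm9) with the symbol Hoxa, Hoxb, Hoxc or Hoxd followed by a number, out of 22271 protein-coding genes on chromosomes 1 to 19, X and Y. They were chosen by name and not by a measured value, though earlier results of these data were known. The 11 Hoxa genes span 106 kb at chr6:52105366-52210874 on the minus strand, the 10 Hoxb genes 174 kb at chr11:96055630-96229570, the 9 Hoxc genes 116 kb at chr15:102751534-102867274 and the 9 Hoxd genes 96.8 kb at chr2:74506367-74603200, the last 3 on the plus strand. Together the 4 clusters cover 492 kb. The 500 kb on each side of a cluster are called its flanks here, 4000 kb in all.

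The study asked where the chromatin organizer SATB1 touches DNA in mouse cells, and 11 of the 38 samples of the series have a peak list that was analysed. All of them came from C57BL/6 mice with the genotype SATB1 Wild-type. One list is an in vitro map of base-unpairing regions (BURs): purified thymocyte genomic DNA was bound by recombinant SATB1 protein. Urea ChIP-seq, which spins crosslinked chromatin through urea to strip proteins held to DNA only through other proteins, gave SATB1 lists for skin (epidermal keratinocytes, labelled P13), thymocytes (P13) and brain (cortex cells, of which, by the labels, only the neurons make SATB1, labelled 5 and 6 weeks), with 2 replicates each, and CTCF lists for thymocytes and skin, 1 each. Standard ChIP-seq, without urea, gave 2 SATB1 lists of thymocytes. Of these, replicate 1 used the Abcam antibody ab109122 and 15 s of sonication, and replicate 2 the antibody 1583D and 150 s. The sampling protocols give other ages for skin (5 days) and brain (13 days), and the titles give 6 weeks for the thymocyte CTCF sample and for standard replicate 1. The published methods differ again, with newborn mice for skin and an older range of weeks for brain. The replicates of brain differ in the titles by 10 and 12 PCR cycles and those of thymocytes by 4 and 2 ul of antibody, and nothing in the labels says that they came from separate mice. The paper's checklist describes its replicates in general as biological, with cells of different mice, but names no samples. Whether this holds for each pair of lists cannot be told from the labels. Spreads and p-values therefore describe these lists and may be technical. Cell type, age and library cannot be told apart, the lists give no read depth, and Hox transcription was not measured.

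Hox genes encode homeodomain transcription factors that set the identity of body segments along the head-to-tail axis. The genes of a cluster are read in 1 direction, and their order on the chromosome, from group 13 at the 5' edge to group 1 at the 3' edge, follows the order in which they are switched on in time and along the body. Polycomb proteins keep the clusters silent in tissues that do not use them, and CTCF, a zinc-finger protein that halts cohesin loops, is known to sit at the borders between silent and active parts of Hox clusters. BURs are AT-rich stretches in which 1 strand carries long runs without G, and SATB1 binds them with a homeodomain and CUT domains.

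The sequences below, read from the mm9 genome on the plus strand, come from urea SATB1 sites and a BUR inside the clusters. The peaks do not resolve which bases SATB1 contacted. Each is 240 bases around the mean peak summit, and the capitals mark the longest run without G or without C within these bases. The first 3 are the sites bound in at least 5 of the 6 urea SATB1 lists that lie outside UTRs: the interval between Hoxb13 and Hoxb9 (chr11:96094355-96094594), the Hoxa9 intron (chr6:52178172-52178411) and the stretch 971 bp upstream of the Hoxa4 start (chr6:52142867-52143106).
Hoxb13 to Hoxb9 interval: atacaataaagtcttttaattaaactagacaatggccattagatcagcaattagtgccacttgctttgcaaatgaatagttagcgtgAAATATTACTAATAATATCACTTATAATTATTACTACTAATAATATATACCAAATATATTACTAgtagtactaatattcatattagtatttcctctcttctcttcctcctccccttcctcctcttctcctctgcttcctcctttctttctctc
Hoxa9 intron: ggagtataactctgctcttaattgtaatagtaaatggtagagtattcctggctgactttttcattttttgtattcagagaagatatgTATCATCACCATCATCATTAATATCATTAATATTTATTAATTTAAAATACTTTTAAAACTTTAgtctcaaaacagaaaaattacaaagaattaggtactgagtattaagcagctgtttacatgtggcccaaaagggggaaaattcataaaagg
Hoxa4 upstream: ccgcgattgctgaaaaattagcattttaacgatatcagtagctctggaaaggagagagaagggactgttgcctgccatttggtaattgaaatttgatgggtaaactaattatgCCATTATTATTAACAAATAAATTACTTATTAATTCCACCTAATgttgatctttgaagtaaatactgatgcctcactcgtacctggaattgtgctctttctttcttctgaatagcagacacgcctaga
The next 3 are a thymocyte and brain site in the Hoxb3 intron that is not in the BUR map (chr11:96203727-96203966) and brain sites in the Hoxc4 intron (chr15:102861267-102861506) and between Hoxd11 and Hoxd10 (chr2:74526461-74526700).
Hoxb3 intron: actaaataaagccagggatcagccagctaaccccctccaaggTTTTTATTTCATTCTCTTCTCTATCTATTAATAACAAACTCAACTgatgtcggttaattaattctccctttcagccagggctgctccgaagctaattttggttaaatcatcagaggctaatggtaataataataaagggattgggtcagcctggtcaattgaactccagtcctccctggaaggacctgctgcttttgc
Hoxc4 intron: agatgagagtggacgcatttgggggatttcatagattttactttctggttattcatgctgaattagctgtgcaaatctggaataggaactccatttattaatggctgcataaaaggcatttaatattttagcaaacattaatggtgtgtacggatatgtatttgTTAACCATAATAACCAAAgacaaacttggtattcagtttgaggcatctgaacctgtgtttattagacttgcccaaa
Hoxd11 to Hoxd10 interval: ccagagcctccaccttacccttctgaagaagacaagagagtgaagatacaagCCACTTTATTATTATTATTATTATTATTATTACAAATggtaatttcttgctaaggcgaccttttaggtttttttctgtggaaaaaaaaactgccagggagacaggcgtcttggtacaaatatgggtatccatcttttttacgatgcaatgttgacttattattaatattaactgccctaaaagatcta
For contrast, a BUR in the Hoxc12 intron (chr15:102768266-102768505) had no urea SATB1 peak in any list.
Hoxc12 intron, no SATB1 peak: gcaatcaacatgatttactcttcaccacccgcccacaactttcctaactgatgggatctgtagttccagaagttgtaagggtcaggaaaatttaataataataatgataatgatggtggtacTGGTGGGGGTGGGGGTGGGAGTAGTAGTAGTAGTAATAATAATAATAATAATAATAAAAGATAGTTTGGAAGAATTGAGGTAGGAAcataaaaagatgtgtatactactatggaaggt
The capitals run over 64, 63 and 43 bases in the first 3 sites, over 45, 18 and 37 bases in the next 3 and over 86 bases in the Hoxc12 intron, where the missing base is C. The whole Hoxc4 intron site holds longer runs than its window, of 65 bases without C and 49 without G. A long run was thus present with and without a SATB1 peak. The motif TAAT, counted on both strands (TAAT or ATTA, overlaps included) after these sequences had been seen, occurred 15, 11 and 11 times in the first 3 windows, 10, 8 and 13 times in the next 3 and 12 times in the Hoxc12 intron. Windows of 240 bases around the summits of all 232310 BURs held a median of 8, and 97.1% of them held at least 1. The median was 12 for the 6646 BURs bound in all 6 urea lists and 6 for the 138109 bound in no list. The 19 BURs inside the Hox clusters held a median of 11. It was 11.5 for the 12 of them bound in 1 or more urea lists and 10 for the 7 bound in none, so these differed little.

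The Hox clusters held few BURs for their length. The in vitro map had 19 BURs in the 492 kb, or 3.86 per 100 kb, against 7 per 100 kb in the flanks and 9.08 per 100 kb over the genome. By cluster there were 4 in Hoxa, 6 in Hoxb, 5 in Hoxc and 4 in Hoxd. Between 21.9% (Hoxa and Hoxb) and 30.2% (Hoxc and Hoxd) of the 25443 genome tiles of 100 kb held as few, so a low count of this size is common. The median tile held 7 BURs, below the genome mean and the same as the flank density. The clusters are also poorer in A and T, at 50% to 51.1%, than their flanks (53.4% to 59%) and than the median tile (58.8%). The cluster BURs themselves had a median AT content of 62.8%, below the 70.7% of all BURs, and a median longest run of 55 bases against 43. Their median fold enrichment over background in vitro, the height that MACS2 gives a peak, was 7.34 (range 3.85 to 20.9), against 6.78 in the flanks and 5.88 for all BURs.

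Urea SATB1 peaks occurred at 15 sites inside the clusters, and 12 of these overlapped a BUR. Skin had 3 and 4 peaks in its 2 lists, thymocytes 9 and 8, and brain 15 and 13. The counts of the 3 cell types did not overlap. They follow the lengths of the whole lists, which hold 11210 and 10846 peaks for skin, 45049 and 38882 for thymocytes and 117963 and 109154 for brain. In peaks per 100 kb the clusters together were above the genome mean in skin (0.61 and 0.813 against 0.43 and 0.415, from 3 and 4 peaks). They were near it in thymocytes (1.83 and 1.63 against 1.76 and 1.52) and below it in brain (3.05 and 2.64 against 4.61 and 4.27). The median genome tile held 4 and 3 peaks of the brain lists. Hoxa (4.74 and 3.79) and Hoxd (4.13 and 3.1) were above this median, and Hoxb (2.3 in each) and Hoxc (1.73 in each) below it. The sites were nested: the 4 sites seen in skin were also in thymocytes, the 9 seen in thymocytes were also in brain, and 6 were seen in brain alone. Over the genome 84.9% of the peaks of skin replicate 1 and 95.7% of those of thymocyte replicate 1 overlapped a brain peak, so overlap with brain peaks was not particular to the Hox clusters. The authors report that over the genome most skin-bound BURs were thymocyte-bound too, so that step of the nesting was not particular either. The genome share of peaks seen in brain alone was not computed.

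**Figure D1:**
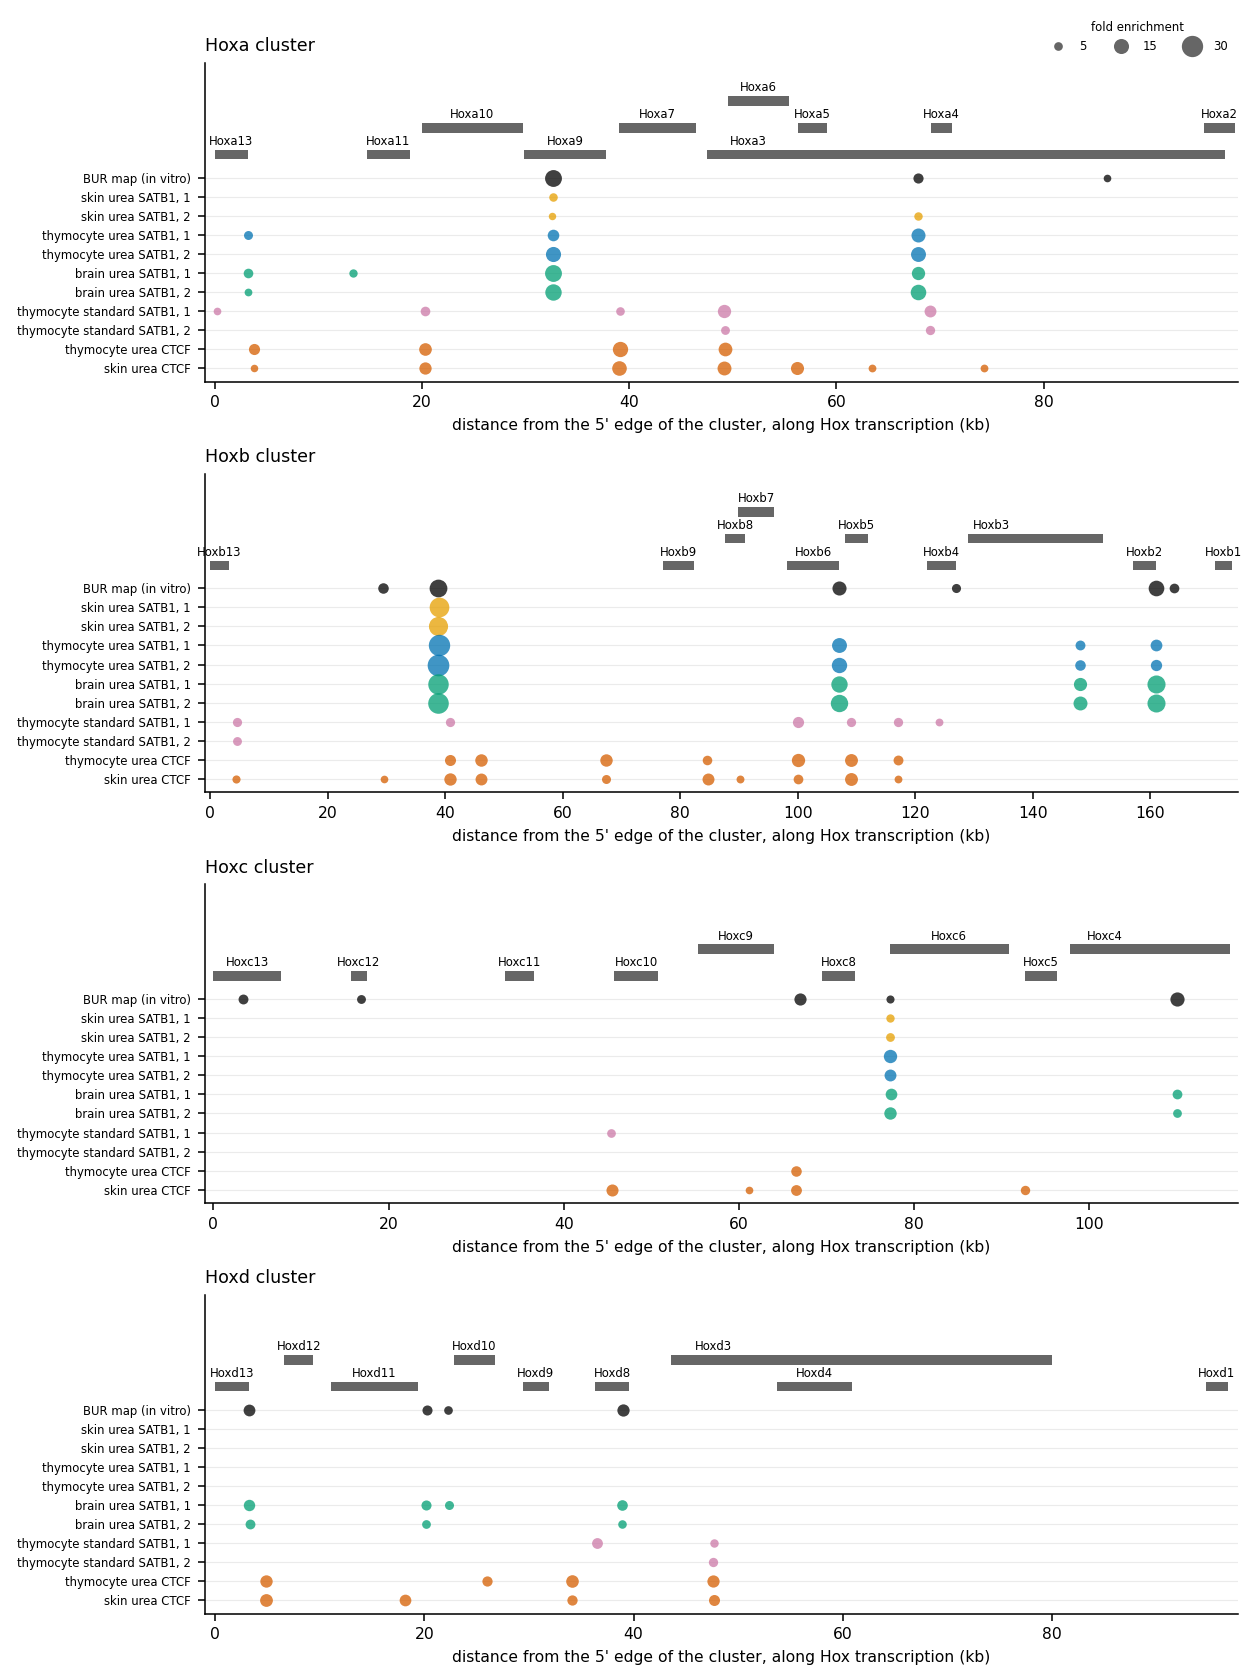
Peaks of the 11 lists along the 4 Hox clusters. The x axis is the distance in kb from the 5' edge of the cluster along Hox transcription (the Hoxa map stops after Hoxa2), grey bars are the genes, and each dot is a peak summit with an area that grows with the fold enrichment. The Hoxb interval site between Hoxb13 and Hoxb9 stands in all 6 urea SATB1 lists, the Hoxd cluster has urea SATB1 dots in brain alone, and CTCF dots lie at other places than the urea SATB1 dots.

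The strongest site inside the clusters lay in the gene-poor interval of the Hoxb cluster between Hoxb13, the 5'-most gene, and Hoxb9 (chr11:96094126-96094822). It is 35365 bp past the end of Hoxb13 and 37949 bp upstream of the Hoxb9 start, outside any annotated gene. Its fold enrichment was 25.6 and 24.2 in the skin lists, 30.2 and 31.1 in the thymocyte lists and 27.7 and 28 in the brain lists, and 20.9 in vitro. The 6 values lie close together, at 24.9 ± 1.06 (SD, n = 2) in skin, 30.7 ± 0.637 in thymocytes and 27.8 ± 0.212 in brain. Within each list it ranked high: in the top 3.26% and 4.67% of skin peaks, the top 0.554% and 0.627% of thymocyte peaks, the top 0.0195% and 0.0266% of brain peaks and the top 0.337% of BURs. The nearest CTCF peak, of skin, was 1402 bp away. Fold enrichment depends on depth and background, which the lists do not give, so values of different lists are set side by side and no order of cell types is drawn from them.

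Further sites of the Hoxb cluster were found in thymocytes and brain but in neither skin list. One touched the 3' UTR of Hoxb6, 790 bp upstream of the start of Hoxb5 (chr11:96162540-96163119), with 14.7 and 15.6 in thymocytes, 17.7 and 20 in brain and 13.1 in vitro. Another overlapped the 3' UTR of Hoxb2 (chr11:96216615-96217169), with 9.15 and 8.45 in thymocytes, 21.6 and 21.5 in brain and 16.2 in vitro. At the Hoxb2 site the brain values were among the top 1.95% and 2.05% of their lists, and the thymocyte values among the top 37.8% and 44.7%. The Hoxb3 intron site (chr11:96203569-96204121) had 6.48 and 7.37 in thymocytes and 11.5 and 12.9 in brain without a BUR. The other 3 Hoxb BURs had no urea SATB1 peak: one 29193 bp past the Hoxb13 start (7.34 in vitro), one touching the Hoxb4 3' UTR (5.47) and one 2765 bp past the end of Hoxb2 (6.24). Hoxb13 acts in the tail and prostate, and Hoxb2 to Hoxb6 in the hindbrain and neck region.

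In the Hoxa cluster 3 of the 4 BURs were bound in both replicates of thymocytes and brain. The Hoxa9 intron site (chr6:52177997-52178560) had 4.82 and 3.68 in skin, 8.91 and 15.1 in thymocytes, 18.8 and 17.8 in brain and 18.8 in vitro. Hoxa9, a regulator of blood progenitors, thus had a site in each of the 6 urea lists, in skin among their weakest peaks (top 91.8% and 98.8%). The site 971 bp upstream of the Hoxa4 start (chr6:52142723-52143270), which also lies in an intron of the longest Hoxa3 transcript, had 13 and 14.7 in thymocytes, 11.7 and 16 in brain, 4.71 in skin replicate 2 and no peak in skin replicate 1. A BUR in the Hoxa3 intron (3.85 in vitro) had no urea SATB1 peak. Outside BURs, a weak site touched the 3' UTR of Hoxa13, the limb and genital gene of the 5' edge, with 5.33 in thymocyte replicate 1 and 6.14 and 3.98 in brain, and another upstream of Hoxa11 appeared in brain replicate 1 alone (4.6).

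In Hoxc the site at the Hoxc6 start (chr15:102828491-102829039), which touches the 5' UTR, was bound in all 6 urea lists, with 4.61 and 5.12 in skin, 11.8 and 9.36 in thymocytes and 9.01 and 10.2 in brain. Its in vitro value was only 4.35 and its AT content 50.1%, the lowest of the 15 bound sites. The Hoxc4 intron site (chr15:102860991-102861614) had 6.33 and 5.08 in brain and 13.3 in vitro. The Hoxc BURs in the Hoxc13 intron (6.47), in the Hoxc12 intron (5.22) and 2302 bp upstream of Hoxc8 (9.82) had no urea SATB1 peak. In Hoxd no skin or thymocyte list had a urea SATB1 peak, while brain had 4 and 3. The 4 Hoxd BURs were those sites: at the Hoxd13 3' UTR (8.63 and 6.41 in brain), 2369 bp upstream of Hoxd10 (6.71 and 5.08), 212 bp upstream of Hoxd10 (5.37 in replicate 1 alone) and at the Hoxd8 3' UTR (7.48 and 4.86). Hoxd10 and Hoxd13 act in the limb and digits. With 4 BURs, the genome shares of bound BURs in thymocytes (14.6% and 12.9%) would give under 1, and a difference from the other clusters was not tested.

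**Figure D2:**
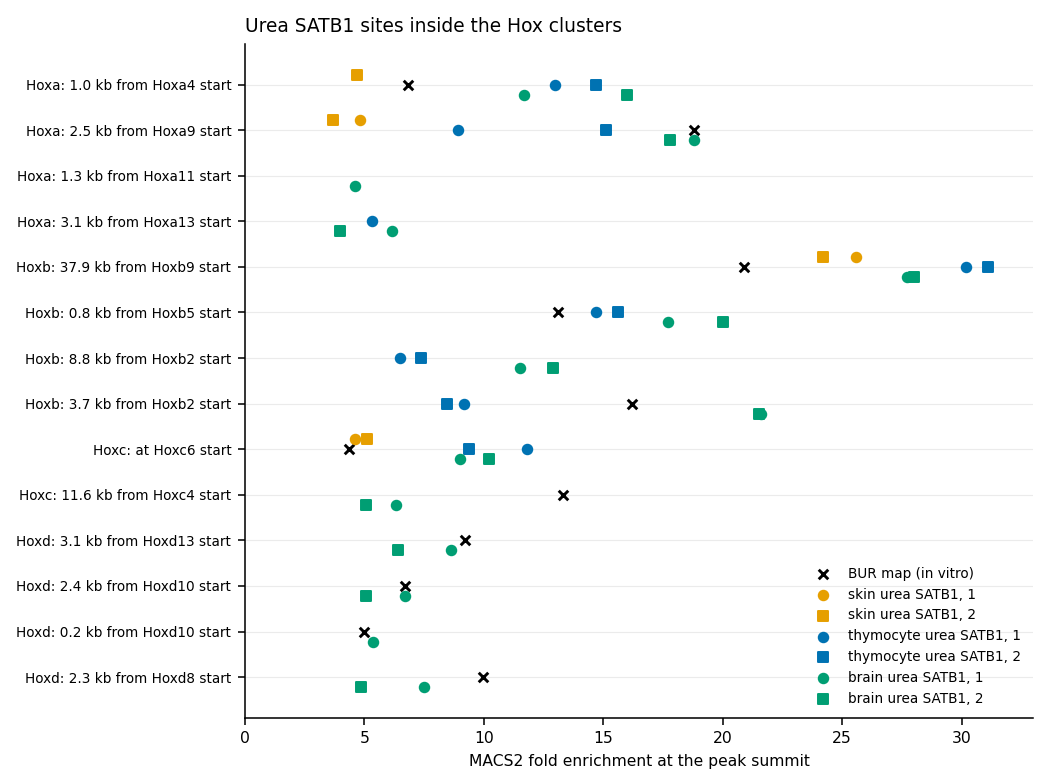
Fold enrichment at 14 of the 15 urea SATB1 sites inside the Hox clusters. The x axis is the MACS2 fold enrichment at the summit, rows are sites named by the distance to the nearest Hox start, colours are cell types, circles and squares are replicates 1 and 2, and crosses are the in vitro BUR map. The Hoxb interval site lies between 24.2 and 31.1 in the 6 lists, and the 4 Hoxd rows hold brain values alone, from 4.86 to 8.63.

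Although few, the BURs of the Hox clusters were often occupied. Skin lists had a peak on 3 and 4 of the 19 BURs (15.8% and 21.1%), against 3.71% and 3.64% of all 232310 BURs. Thymocyte lists had one on 7 and 7 (36.8% in each), against 14.6% and 12.9%. Brain lists had one on 12 and 11 (63.2% and 57.9%), against 37.2% and 34.2%. Of the 19, 3 were bound in both replicates of all 3 cell types (15.8%, against 2.86% of all BURs) and 7 in no urea list (36.8%, against 59.5%). The flank BURs were nearer to the genome, with 6.07% and 4.64% in skin, 17.1% and 16.1% in thymocytes and 36.4% and 34.3% in brain. Of the 6 cluster BURs with a fold enrichment of 10 or more in vitro, skin lists held 2 and 2 (9.76% and 9.66% of all such BURs), thymocyte lists 5 and 5 (26.9% and 26%) and brain lists 6 and 6 (47.8% and 44.7%). Of the 10 between 5 and 10, skin held 0 and 1 (3.6% and 3.51% of all), thymocytes 1 and 1 (16.7% and 14.4%) and brain 4 and 4 (43.6% and 40.2%). In this tier the cluster shares, 10% in each thymocyte list and 40% in each brain list, were not above those of all such BURs. Of the 3 under 5, skin and thymocytes held 1 in each list (0.934% and 0.891%, and 6.34% and 4.97% of all) and brain 2 and 1 (24.9% and 22.5%), so the cluster shares did not rise steadily with strength. The 12 bound BURs had a median of 11.5 in vitro and the 7 unbound ones 6.24, against 6.82 and 5.29 over the genome. These are counts over 19 regions of 4 loci in 1 set of lists, given without a test.

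**Figure D3:**
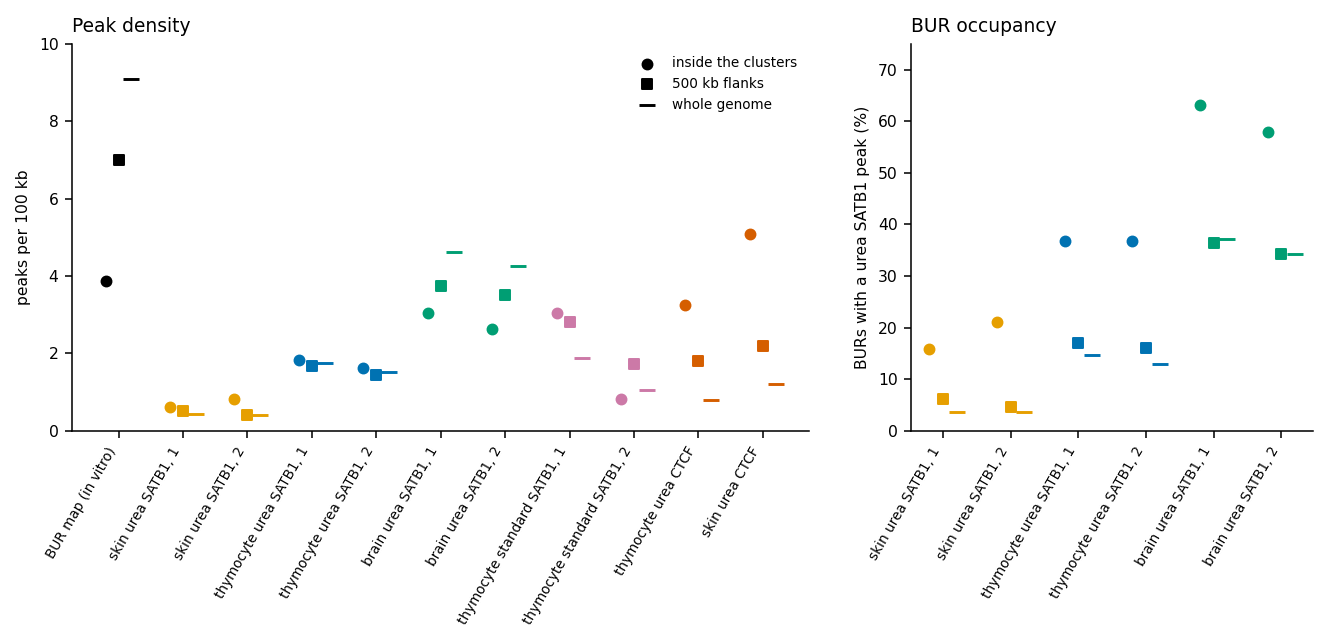
Peak density and BUR occupancy. The left panel gives peaks per 100 kb inside the clusters (circles), in the 500 kb flanks (squares) and over the genome (dashes) for each list, and the right panel the percent of BURs with a urea SATB1 peak for the same 3 sets. Inside the clusters BURs were sparse, at 3.86 per 100 kb, and occupancy was higher than in the flanks in all 6 lists.

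Cluster BURs often touched transcribed sequence. Of the 19, 5 touched a 3' UTR and 6 an exon of a protein-coding gene, against 1.15% and 3.03% of all BURs. In brain 5 of 15 and 5 of 13 urea SATB1 peaks touched a 3' UTR (1.24% and 1.18% of all brain peaks), and in thymocytes 3 of 9 and 2 of 8 (1.08% and 1.05%). Hox clusters are dense in genes: exons cover 23.3% of the 492 kb and 3' UTRs 10.3%, and the share of exon in the clusters was not used to correct these counts.

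CTCF peaks inside the clusters were more numerous per length than over the genome. Thymocytes had 16 (3.25 per 100 kb, against 0.79 over the genome) and skin 25 (5.08, against 1.22). In Hoxa, Hoxb and Hoxd at most 5.59% of genome tiles held as many thymocyte CTCF peaks for their length, and at most 5.06% as many in skin. For Hoxc the shares were 37.2% and 9.56%. Merged, there were 26 CTCF sites, of which 15 were found in both cell types, 10 in skin alone and 1 (at Hoxd10) in thymocytes alone. Over the genome 83.5% of thymocyte CTCF peaks overlapped one of skin, and 53.7% of skin CTCF peaks overlapped one of thymocytes. Inside the clusters 15 of the 25 skin peaks did, so the sites of skin alone are near the background. Among the 15 shared sites, those with the highest mean of the 2 cell types lay at Hoxa7 (15.5 in thymocytes and 14.1 in skin), at the Hoxa6 start (12.5 and 12.8), at Hoxb5 (11 and 11), upstream of Hoxd12 (10.1 and 10.8) and at Hoxa10 (10.6 and 10). The Hoxb cluster also had shared sites between Hoxb13 and Hoxb9 (10.3 and 9.37, and 8.06 and 10.1) and in the Hoxb6 intron (11.7 and 6.25), Hoxa 1 past Hoxa13 (8.19 and 3.75), Hoxd 1 upstream of Hoxd8 (10.5 and 6.99) and Hoxc 1 alone, upstream of Hoxc8 (7.34 and 7.77). None of the 15 urea SATB1 sites overlapped a CTCF peak, and the median distance to the nearest one was 4294 bp (range 169 to 43412 bp). Over the genome 11.5% and 10.7% of skin, 0.87% and 0.941% of thymocyte and 0.612% and 0.595% of brain urea SATB1 peaks overlapped a CTCF peak of either cell type, so a count of 0 among so few sites is near the background. Of the 19 BURs, 2 overlapped a skin CTCF peak, the one past Hoxb13 and the one upstream of Hoxc8, and neither had a urea SATB1 peak. Among all BURs 0.524% overlapped a skin CTCF peak.

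Part of the CTCF sites carried the core of the factor's known motif. The core was searched as CCNNNAGNNGGC on both strands, where N is any base. It was in 10 of the 26 CTCF sites (8 of the 15 shared ones), against 57.2% of all thymocyte and 44.4% of all skin CTCF peaks. Of the 8 shared sites, 6 had it on the Hox strand and 2 on the other. A missing match says only that these letters are not in the peak. The sequences below are shown to place the core beside named genes, with 20 bases on each side and the core in capitals, on the strand that holds it. They are shared sites whose printed bases lie outside UTRs, with a core within 50 bp of the thymocyte summit: upstream of Hoxb9 in the coding exon of Gm53 (chr11:96123047-96123098, minus strand), upstream of Hoxb8 (chr11:96140242-96140293, plus), between Hoxd13 and Hoxd12 (chr2:74511215-74511266, minus) and in the Hoxd3 intron (chr2:74553958-74554009, plus).
Hoxb9 upstream: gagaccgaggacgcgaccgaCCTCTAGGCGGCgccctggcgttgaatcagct
Hoxb8 upstream: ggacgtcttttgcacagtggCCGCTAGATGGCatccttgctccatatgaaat
Hoxd13 to Hoxd12 interval: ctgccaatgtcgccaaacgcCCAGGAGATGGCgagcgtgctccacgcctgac
Hoxd3 intron: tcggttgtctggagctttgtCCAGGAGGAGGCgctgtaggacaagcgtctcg
In these the thymocyte summit was 25, 41, 3 and 13 bp from the middle of the core. The fold enrichment at these sites was 10.2 and 5.36, 6.05 and 9.47, 10.1 and 10.8, and 9.91 and 8.03 in thymocytes and skin.

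In thymocytes standard ChIP-seq put SATB1 at other places in the clusters than urea ChIP-seq did, as over the genome. The standard lists had 15 and 4 peaks inside the clusters, and the urea lists 9 and 8, a mean of 9.5 ± 7.78 against 8.5 ± 0.707 (SD, n = 2). The difference of 1 peak was within the spread of the standard lists (exact two-sided permutation test, p = 1, n = 2 against 2, where the smallest possible p is 0.333). It was -4.5 without standard replicate 1, which has another antibody and sonication than replicate 2, and 6.5 without standard replicate 2. None of the standard peaks overlapped a urea SATB1 site or a BUR, whereas 7 of 9 and 7 of 8 urea peaks overlapped a BUR. Over the genome 2.82% and 4.82% of standard peaks overlapped a urea SATB1 peak of any of the 6 lists, so none among 15 and 4 is near the background. Likewise, 3.51% and 4.7% of standard peaks and 75.8% and 77.6% of urea peaks overlapped a BUR. The 4 peaks of standard replicate 2 were also in replicate 1, while 4 of the 15 of replicate 1 were in replicate 2 (84.3% and 45.2% over the genome).

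The 4 sites of both standard lists lay at the Hoxa6 start (11.7 and 5.17), at Hoxa4 (9.35 and 5.74), in the Hoxd3 intron (4.73 and 5.74) and 4101 bp past the Hoxb13 start (5.57 and 5.23). All but the Hoxa4 site overlapped a CTCF peak. In all, 10 of the 15 standard sites had a CTCF peak of thymocytes or skin, against 26.3% and 24.6% of the peaks of the whole lists. Those without one included sites at Hoxa4, Hoxa13 (3.91), Hoxb4 (4.07) and Hoxd8 (7.75), each within 2 kb of the start of that gene. At Hoxa4 both kinds of SATB1 peak came near each other: the urea site was 665 bp from the peak of standard replicate 1 and 779 bp from that of replicate 2.

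At gene starts, standard SATB1 peaks were less frequent at Hox genes than at all genes by count, and CTCF peaks of skin more frequent, with no test of either. Within 2 kb of the annotated 5' end, 11 and 3 of the 39 Hox genes had a standard SATB1 peak (28.2% and 7.69%), against 52.8% and 40.6% of all 22271 protein-coding genes. The 11 included Hoxa3, Hoxa4, Hoxa6, Hoxa7, Hoxa10, Hoxa13, Hoxb4, Hoxb5, Hoxc10 and Hoxd8, and the 3 of replicate 2, Hoxa3, Hoxa4 and Hoxa6, were among them. The longest Hoxa3 transcript begins near Hoxa6, so Hoxa3 and Hoxa6 share 1 peak. CTCF peaks stood near 6 Hox starts in thymocytes (15.4%, against 14.1% of all genes) and near 12 in skin (30.8%, against 17.3%). The 6 were Hoxa3, Hoxa6, Hoxa7, Hoxa10, Hoxb5 and Hoxd12, and skin added Hoxa5 (11.3), Hoxb6 (6.25), Hoxb7 (4.15), Hoxc5 (5.85), Hoxc10 (9.62) and Hoxd8 (6.99). At Hoxb6 and Hoxd8 thymocytes had a peak at the same CTCF sites (11.7 and 10.5). Those peaks ended 2.1 and 2.08 kb from the starts, just outside the window. A BUR lay near 6 Hox starts (15.4%, against 18.3%): Hoxa4, Hoxb3, Hoxb5, Hoxc6, Hoxc12 and Hoxd10.

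Urea SATB1 peaks lay within 2 kb of few Hox starts. Skin lists had them at 1 and 2 genes (2.56% and 5.13%, against 1.35% and 1.28% of all genes), thymocyte lists at 3 and 3 (7.69% each, against 4.27% and 3.94%) and brain lists at 5 and 4 (12.8% and 10.3%, against 9.88% and 9.1%). In each of the 6 lists the Hox share was above that of all genes, but it rests on few genes and was not tested. Hoxc6 was in all 6 lists. Hoxa4 was in all but skin replicate 1, Hoxb5 was in the thymocyte and brain lists, Hoxd10 and Hoxa11 were in brain replicate 1 and Hoxc13 in brain replicate 2 (5.08). In all, 22 of the 39 genes had a peak of some list near the start (56.4%, against 69.9%), and 17, among them Hoxb1, Hoxb2, Hoxd1 and Hoxd4, had none. The median distance from a Hox start to the nearest peak was 6.88 kb for BURs (7.5 kb over all genes), 17 and 19 kb for thymocyte urea SATB1 (37.2 and 40.8 kb), 8.75 and 9.92 kb for brain urea SATB1 (17.9 and 19.3 kb), 7.03 and 47 kb for standard SATB1 (0.83 and 9.23 kb) and 6.08 and 4.5 kb for CTCF of thymocytes and skin (21.8 and 14.9 kb). Hox starts lie close together, so 1 peak can serve several genes.

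**Figure D4:**
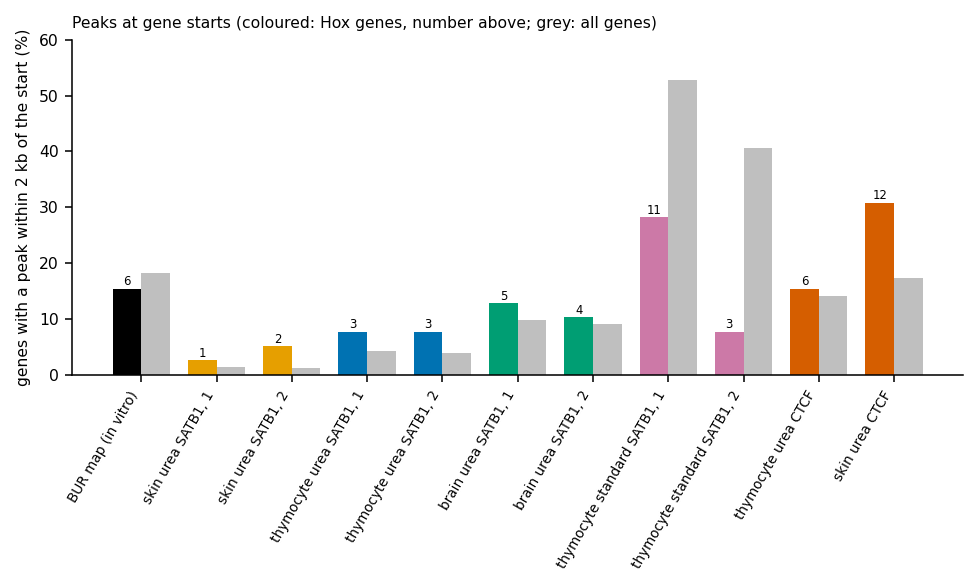
Genes with a peak within 2 kb of the start. Bars give the percent of the 39 Hox genes (coloured, with the number of genes above) and of all 22271 protein-coding genes (grey) for each of the 11 lists. The standard SATB1 bars of the Hox genes, 28.2% and 7.69%, are below the grey bars of 52.8% and 40.6%, and the skin CTCF bar, 30.8%, is above its grey bar of 17.3%.

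In the flanks the number of urea SATB1 peaks rose from skin to thymocytes to brain. The 4000 kb held 20 and 16 peaks in skin, 67 and 57 in thymocytes and 150 and 140 in brain, or 18 ± 2.83, 62 ± 7.07 and 145 ± 7.07 (SD, n = 2). The counts of the cell types did not overlap (one-sided exact permutation test for an ordered trend, Jonckheere-Terpstra statistic, 90 arrangements, p = 0.0111, the smallest possible). The order tested, here and for the BURs below, was that of the lengths of the whole lists. Both p-values are therefore no independent support for a trend in the flanks. Relative to the length of the list no order was shown, with 17.8 and 14.8 flank peaks per 10000 peaks in skin, 14.9 and 14.7 in thymocytes and 12.7 and 12.8 in brain (exact two-sided permutation test, p = 0.0667). The skin and thymocyte values interleaved, and without skin replicate 1 the means of both were 14.8. The percent of the 280 flank BURs with a peak rose in the same order, 5.36 ± 1.01, 16.6 ± 0.758 and 35.4 ± 1.52 (SD, n = 2; exact one-sided permutation test, p = 0.0111, the smallest possible), beside the shares of all BURs given above. A longer list can cover more BURs, and list length was not taken out of this percentage.

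The flanks of Hoxa and Hoxd held more BURs and urea SATB1 peaks than those of Hoxb and Hoxc, and fewer CTCF peaks. There were 91 BURs around Hoxa and 91 around Hoxd, against 53 around Hoxb and 45 around Hoxc. Brain peaks numbered 56 and 52 around Hoxa and 54 and 47 around Hoxd, against 20 and 22 around Hoxb and 20 and 19 around Hoxc. Thymocyte peaks numbered 23 and 20 around both Hoxa and Hoxd, against 12 and 8, and 9 and 9. CTCF went the other way, with 9 thymocyte peaks around Hoxa and 6 around Hoxd, against 26 around Hoxb and 31 around Hoxc. The left and right flanks hold 1 and 3 protein-coding genes around Hoxa and 2 and 1 around Hoxd, against 14 and 5 around Hoxb and 12 and 13 around Hoxc. Their AT content was 57.2% to 59% around Hoxa and Hoxd and 53.4% to 56% around Hoxb and Hoxc, and its part in the counts was not tested.

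**Figure D5:**
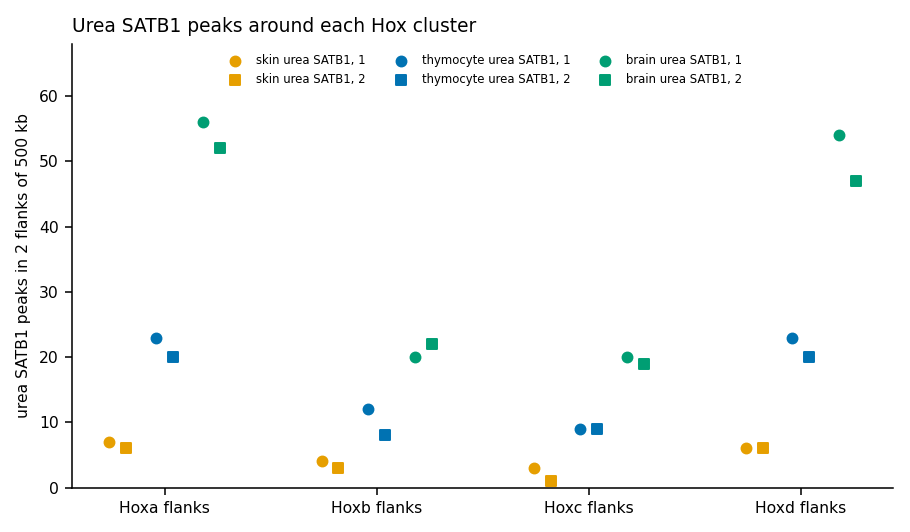
Urea SATB1 peaks in the 2 flanks of each Hox cluster. The y axis is the number of peaks in 1000 kb of flank, colours are cell types, and circles and squares are replicates 1 and 2. Around each cluster both brain values lie above both thymocyte values, which lie above both skin values, and the brain values are 47 to 56 around Hoxa and Hoxd and 19 to 22 around Hoxb and Hoxc.

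The nearest BURs lay 7.04 to 19.4 kb from the cluster edges, and of these 8 BURs 6 had no urea SATB1 peak, a share near the 59.5% of all BURs. The exceptions were 17.8 kb past Hoxc4 (6.71 and 12.2 in brain, 5.08 in thymocyte replicate 1) and in the 3' UTR of Evx2, the homeobox gene beside Hoxd13 (5.18 in brain replicate 1). The nearest skin peaks of both replicates were 107 to 482 kb away, in Skap2, a signalling adaptor, and Hibadh, a valine-breakdown enzyme, on the Hoxa sides, in Skap1 on the Hoxb 3' side, in Mtx2 on the Hoxd 3' side, and outside genes elsewhere. The left Hoxc flank had none. Thymocyte peaks of both replicates came as near as 12.2 kb (Hoxa 3' side, 8.64 and 7.54) and brain peaks as near as 12.1 kb at the same place (7.09 and 11.9). The strongest BUR bound in all 6 lists of the Hoxb 3' side (chr11:96728357-96728596) is printed, since it reached values like those of the Hoxb interval site, with the longest run without C in capitals.
Hoxb 3-prime flank: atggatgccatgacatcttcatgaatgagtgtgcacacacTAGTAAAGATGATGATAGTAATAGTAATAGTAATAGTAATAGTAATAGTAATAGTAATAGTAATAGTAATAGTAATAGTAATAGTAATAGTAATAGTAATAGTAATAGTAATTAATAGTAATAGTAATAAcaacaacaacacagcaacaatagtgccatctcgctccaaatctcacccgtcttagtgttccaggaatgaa
This BUR, 499 kb past Hoxb1, had 26.5 and 26.7 in skin, 30.3 and 29.6 in thymocytes and 25.5 and 25.5 in brain, and its capitals run over 130 bases. It overlapped CTCF peaks of thymocytes (11.6) and skin (8.27) and a standard SATB1 peak (5.03), unlike the sites inside the clusters. The TAAT motif occurred 20 times in the window.

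Genes that work with or resemble the Hox genes were counted the same way, from lists of related genes. Of 17 Polycomb genes, which encode the proteins that keep Hox clusters silent, 16 and 13 had a standard SATB1 peak within 2 kb of the start, Rnf2 (16.3) and Phc2 (12.6) the highest in replicate 1. In brain 3 and 3 of the 17 had a urea SATB1 peak, Suz12 highest (15.9 and 20.5), and Suz12 was the 1 such gene in thymocytes (7.11 and 5.2). Of the 9 TALE cofactors, homeodomain partners that bind DNA together with Hox proteins, 7 and 4 had a standard SATB1 peak, Pknox2 (12.3 and 8.2) and Pknox1 (8.84 and 8.56) the highest. Of 18 homeobox genes outside the Hox family (of the Dlx, Irx and sine oculis families), 5 and 2 had a standard SATB1 peak, Six5 highest (8.66 and 5.85), and Dlx1 had a urea SATB1 peak in brain (11.1 and 9.38) and in thymocyte replicate 1 (6.35). Neither of the 2 Evx genes, which flank Hoxa and Hoxd, and none of the 6 ParaHox and Cdx genes, the sister genes of the Hox family, had a peak of any of the 11 lists there. The shares of all genes with a standard SATB1 peak there are 52.8% and 40.6%. For urea SATB1 they are 9.88% and 9.1% in brain and 4.27% and 3.94% in thymocytes, and for a peak of any list 69.9%. No gene list was tested against these shares.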

How the data were processed

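The data are 11 MACS2 narrowPeak lists, 1 per sample, of ChIP-seq or in vitro SATB1 binding in mouse cells. The authors aligned reads to mm9 with Bowtie2 2.3.1. They called peaks per sample with MACS2 2.2.7 and a q-value limit of 0.01. Deposited values per peak are a score, the fold enrichment ratio at the summit, the −log10 p-value and −log10 q-value and the summit offset, and fold enrichment is the value quoted here. The deposited lists hold no counts and the sequencing depth is unknown, so no counting interval is given.

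Peaks were placed against GENCODE vM1 genes and the NCBIM37 genome (the sequence of mm9) with Python 3.11.15 and NumPy 2.4.6. An overlap of 1 bp counted, a peak touching a cluster was not counted in its flank, and gene starts were widened by 2 kb. Records of 1 symbol that overlap were merged. Genome tiles of 100 kb with over 10% unknown bases were left out. Groups and replicate numbers came from the labels. Counts per list were compared with exact permutation tests at 0.05. Overlap and permutation code was tested on simulated data. The members, gene lists and windows were chosen with earlier results of these data known. Named genes were the Hox members with a standard SATB1 or CTCF peak within 2 kb of the start and those nearest to a named peak, and named peaks were the BURs and urea SATB1 peaks inside the clusters (the 5 highest per cluster where there were more; the sixth Hoxb BUR and the CTCF site upstream of Hoxb8 were added after their values were seen), the highest CTCF and standard SATB1 peaks and the nearest and strongest flank sites. Alternatives tried included peaks past a −log10 q of 5, regions with a peak in all lists left out, summits in place of overlap, clusters wider by 10 kb, flanks of 250 and 1000 kb, start windows of 1 and 5 kb or the whole gene, a replicate block, and each list or cluster left out. Equal replicate numbers mark no shared mouse or day in the labels. Some items are not reported here.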

Additional observations from a re-analysis of the deposited data

How the results depend on the processing

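The order of flank peaks by cell type (17 alternatives) and of bound flank BURs (18 alternatives) kept its direction and passed the threshold under each, with exact permutation p from 0.0111 to 0.0333. The order tested was that of the list lengths. None of the 58 regions with a peak in all lists lies in the clusters or flanks. Leaving them out therefore could not change any count there. Counts of BURs (19 to 21) and CTCF peaks inside the clusters (16 to 17 in thymocytes, 25 to 27 in skin) stayed within 1.5 times. Standard against urea could not pass in any setting (smallest possible p 0.333). Reversals concerned standard against urea SATB1 peaks inside the clusters, a mean difference of 1 peak: it was -0.5 without the Hoxd cluster (exact permutation test, p = 1) and between -4.5 (without standard replicate 1) and 6.5 (without standard replicate 2) with 1 list left out, so its direction rests on the 15 peaks of standard replicate 1. Flank peaks per 10000 peaks of a list passed the threshold without the Hoxc cluster, where brain minus skin was -3.44 (exact two-sided permutation test, p = 0.0222); over the alternatives p ran from 0.0222 to 0.578. With 1 list left out, brain minus skin ranged from 122 to 132 for flank peaks, from -5.07 to -1.98 per 10000 and from 28.9 to 31.1 percentage points for bound flank BURs. The number of Hox genes with a peak of any list near the start was 15 for 1 kb and 31 for 5 kb. Counts per list moved more: for BURs from 6 to 3 (1 kb) and 17 (5 kb), and with 5 kb to 8 and 7 in thymocyte and 14 and 14 in brain urea SATB1 lists, 16 in thymocyte CTCF and 22 in skin CTCF.

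Equal replicate numbers mark nothing shared in the labels. Replicate 1 minus replicate 2 was 4, 10 and 10 flank peaks in skin, thymocytes and brain. With the replicate block, exact permutation p-values were 0.0278 for flank peaks and for bound flank BURs (the smallest possible), 0.0556 per 10000 peaks (brain minus skin -3.53) and 1 for standard against urea. In blocks the smallest possible two-sided p is 0.0556 per 10000 peaks and 0.5 for standard against urea, so those 2 could not pass.

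The lists hold peaks past a q limit of 0.01 without read counts, so a missing peak does not show missing binding. Cell type, age and list length move together, and there are 2 lists per group.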
